A study of Mus musculus with 36 samples.

Results

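Brains of mice with experimental autoimmune encephalomyelitis (EAE), an induced autoimmune disease of the central nervous system, were sorted by their own level of Cd74 and compared. Within each of 3 EAE groups, the libraries were chosen by their measured Cd74 level: a library was called high when its Cd74 level lay above the group median, and low otherwise. Levels are in CPM, the count of a gene per M (mega) counts of its library. This gave 13 high-Cd74 and 15 low-Cd74 libraries, together all 28 EAE libraries of the 36 in the series. The other 8 libraries came from naive mice and had no part in the sorting.

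Cd74 encodes the invariant chain, which escorts newly made MHC class II molecules to the compartment where peptides are loaded. In EAE, T cells that recognise myelin enter the nervous system and release interferon gamma. Interferon gamma acts through transcription factors such as IRF1 to induce the transactivator CIITA, which turns on Cd74 and the class II genes in microglia and in myeloid cells that enter from blood.

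All mice were wild-type C57BL/6. EAE was induced with an emulsion of the myelin peptide MOG35-55 in complete Freund's adjuvant, together with pertussis toxin, which was given again on the next day. The 9 untreated EAE mice were not gavaged, the 9 vehicle mice received corn oil by daily gavage, and the 10 farnesol mice received trans, trans-farnesol at 100 mg/kg/day in corn oil by the same route. Whole brains were taken on day 19, described as the peak of disease, and no group received adjuvant and toxin without the myelin peptide. Ages and clinical scores were not given in the sources used here, so Cd74 stands for a level of RNA and not for disability.

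In the untreated group the 5 low libraries held 46.8, 53.2, 55.4, 111 and 190 CPM of Cd74, and the 4 high libraries held 229, 329, 406 and 413 CPM. The vehicle group had 17.3, 29.996, 36.7, 40.8 and 68.6 CPM in its 5 low libraries and 166, 171, 317 and 967 CPM in its 4 high libraries. In the farnesol group the 5 low libraries held 26.8, 28.6, 37.3, 43.7 and 59.9 CPM and the 5 high libraries 107, 129, 184, 215 and 572 CPM. Naive brains held 5.44 to 9.30 CPM, so the lowest EAE library was above every naive one. The boundary therefore ran between 190 and 229 CPM in untreated, 68.6 and 166 CPM in vehicle, and 59.9 and 107 CPM in farnesol mice. The untreated library at 190 CPM counted as low although it exceeded 5 high libraries of the other groups. Means were 323 ± 235 CPM (SD, n = 13) in high-Cd74 and 56.4 ± 43.2 CPM (SD, n = 15) in low-Cd74 brains. These values chose the members and were not tested.

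Total counts ranged from 14.71 to 24.21 M per library. They were higher in high-Cd74 libraries, at 20.9 ± 1.99 M (SD, n = 13), than in low-Cd74 libraries, at 19.0 ± 2.04 M (SD, n = 15), with a group-adjusted difference of 2.03 M (permutation within groups, adjusted p = 0.0428 over 7 measures; 0.0682 without the median libraries). The mitochondrial share, a ribosomal RNA gene and scores of cerebellar, olfactory, choroid plexus and erythroid genes gave adjusted p between 0.253 and 0.925. The 5 untreated low libraries, replicates 1 to 5, were also the 5 untreated libraries with more than 1 CPM of Sbp, a spermine-binding protein best known from prostate, whereas replicates 6 to 9 were high in Cd74 and at most 0.0987 CPM in Sbp. In that group the 2 properties cannot be told apart. Among vehicle libraries Sbp exceeded 1 CPM in 2 low and 1 high library, and among farnesol libraries in none. The cerebellar score was far below the group in untreated replicate 3 and farnesol replicate 2, both low in Cd74. Xist, the RNA of the inactive X chromosome, was at 317 to 832 CPM in all 36 libraries and the Y-linked gene Ddx3y at no more than 0.0515 CPM.

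High-Cd74 brains carried a broad interferon, antigen presentation and leukocyte programme at several times the level of low-Cd74 brains. Log2 differences below are high minus low ± SE from edgeR's quasi-likelihood test with treatment group as a term, and adjusted p is by Benjamini-Hochberg over all genes tested. Of 19129 genes other than Cd74, 1947 (10.2%) passed an adjusted p of 0.05, 1503 (7.86%) higher and 444 (2.32%) lower in high-Cd74 brains. The rises were larger than the falls, with 441 genes higher and 10 lower by more than 2-fold. The median difference over all genes tested was -0.01. Of the 1947 genes, 1933 had the same sign in the untreated, vehicle and farnesol groups. In 178 genes (0.931%), every high library stood above every low library of its own group. In whole-brain RNA, more cells of a type and more RNA per cell cannot be told apart.

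Fewer genes were called without the Sbp libraries, the 8 EAE libraries with Sbp above 1 CPM. That fit called 805 of 19273 genes, 771 higher and 34 lower, and 778 of them were among the 1947. It had fewer libraries to detect small differences. It also kept only high libraries of the untreated group, so its difference rested on the vehicle and farnesol groups. Without the untreated group 1173 genes were called, and 1558 with Sbp above 1 CPM as a term. Removing Sbp and losing the untreated comparison cannot be told apart in the fit without the Sbp libraries. List counts below from that fit stand beside its 805 of 19273 genes. Without the 2 libraries poor in cerebellar transcripts 1827 genes were called, 1649 of them shared. Animals were sorted by a measured RNA, so each call is an association between animals and not the effect of a treatment.

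**Figure D1:**
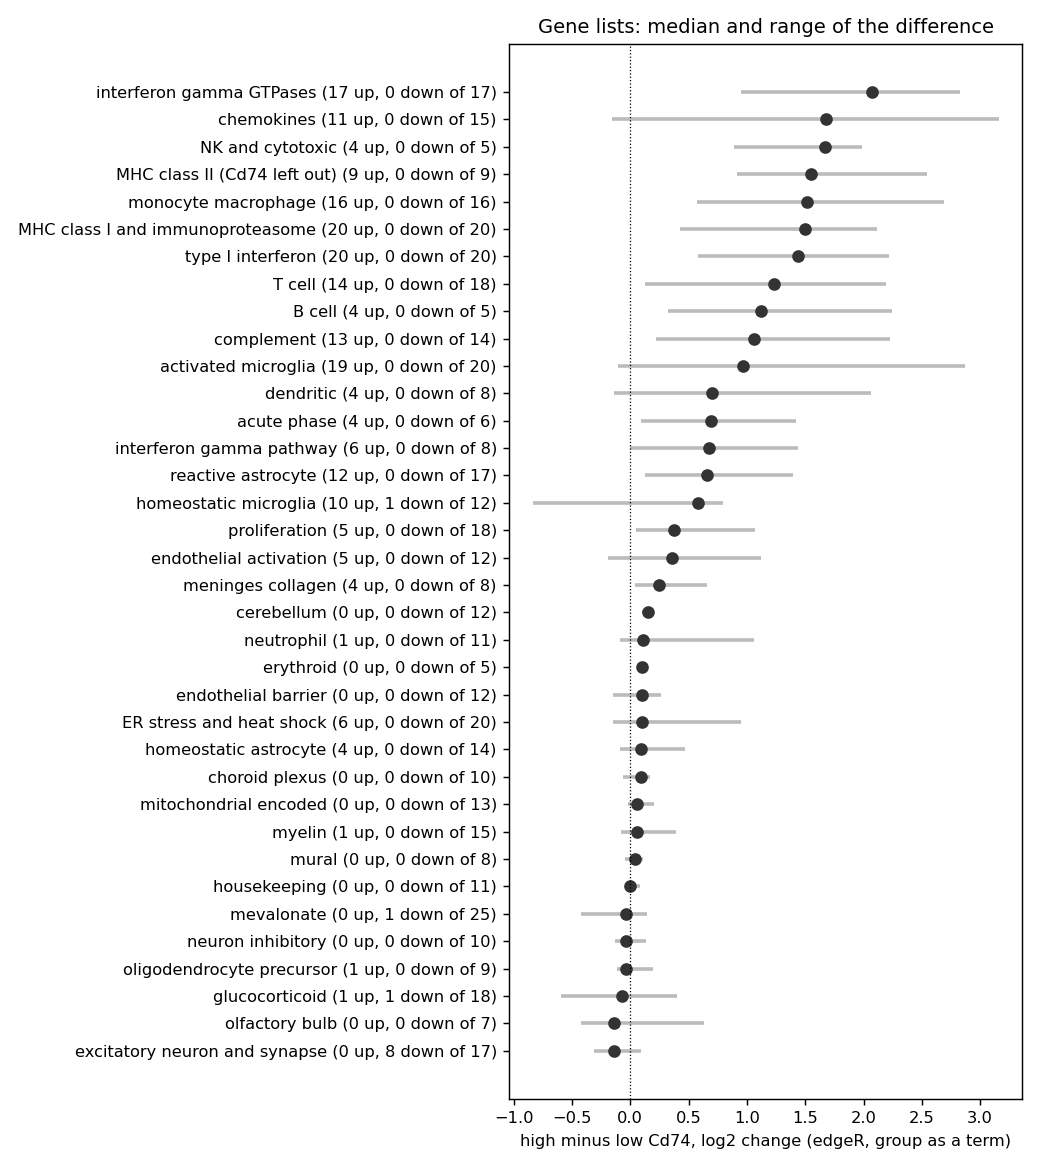
High minus low Cd74 difference (log2, edgeR with treatment group as a term) of the gene lists. Points are list medians and grey lines run from the lowest to the highest member. The counts give members called higher and lower of those tested. Interferon, antigen presentation and leukocyte lists lie at the top. The neutrophil list, with 1 of 11 called, lies near 0 beside the neuron, myelin, endothelial barrier and homeostatic astrocyte lists. Both microglia lists and the reactive astrocyte list lie higher.

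The MHC class II genes rose as a whole. All 9 tested members of the list, which leaves out Cd74, were higher in high-Cd74 brains, with a median log2 difference of 1.55 against -0.01 over all genes, and all 9 passed without the Sbp libraries too. H2-Ab1 (chr17:34257689-34269419, GRCm38), the beta chain of the I-A molecule, measured 36.02 to 278 CPM with a median of 57.0 in high and 5.97 to 47.1 CPM with a median of 13.8 in low libraries. Every high library was above every low library of its group. Its difference was 2.38 ± 0.28 (adjusted p = 7.7e-07). Naive brains held 2.48 ± 0.58 CPM (SD, n = 8). The I-A alpha chain gene H2-Aa differed by 2.55 ± 0.30 and the I-E beta chain gene H2-Eb1 by 2.39 ± 0.28. H2-DMa, a chain of the peptide-loading chaperone, differed less, by 0.92 ± 0.12, and Ciita, the transactivator of the class, by 0.99 ± 0.18 (adjusted p = 0.000243).

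The promoters of class II genes are known for a conserved module that ends in the Y box, an inverted CCAAT element. RefSeq promoter windows of build GRCm38.p6 were searched over the 250 bases before the start for CTGATTGG on both strands. It was found in 4 of 8 class II genes with a window and in 1258 of 32851 windows in all (3.83%), and in none of 10 interferon-inducible GTPase genes. The 100 bases before the start of 3 of these genes are shown on the gene's strand, 5′ to 3′, with the match in capitals, since the class moved together. A match describes letters and not binding. H2-Aa lies at chr17:34287824-34287923 (minus strand), H2-Eb1 at chr17:34305767-34305866 (plus strand) and H2-Oa at chr17:34092279-34092378 (plus strand).
H2-Aa: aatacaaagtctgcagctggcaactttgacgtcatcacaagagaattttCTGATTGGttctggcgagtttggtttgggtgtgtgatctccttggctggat
H2-Eb1: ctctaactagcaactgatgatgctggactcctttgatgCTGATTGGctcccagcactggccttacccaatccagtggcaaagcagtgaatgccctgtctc
H2-Oa: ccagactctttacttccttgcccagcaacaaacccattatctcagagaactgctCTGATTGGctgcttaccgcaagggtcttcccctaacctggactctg

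Interferon gamma itself was close to the limit of detection. Ifng had 27 reads in all 13 high libraries, present in 11 of them, 5 reads in 3 of 15 low libraries and 0 in naive libraries, and it was too low to be tested. Its signalling genes rose: 6 of 8 tested members of the pathway list were higher, with a median of 0.68. The receptor chain Ifngr1 differed by 0.47 ± 0.07, and the kinase genes Jak1 and Jak2, at 0.00 and 0.13, did not pass. Irf1 differed by 1.37 ± 0.20 and Irf8, which also directs myeloid cells, by 1.38 ± 0.18.

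The interferon gamma-inducible GTPases, which act on vacuoles that hold intracellular pathogens, had the largest list median, 2.08. All 17 were higher, and 16 of 17 without the Sbp libraries. Igtp ranged from 24.9 to 254 CPM with a median of 60.7 in high and from 5.97 to 35.8 CPM with a median of 11.4 in low libraries, against 5.47 ± 0.83 CPM (SD, n = 8) in naive brains. High and low libraries did not overlap within any group, with a difference of 2.48 ± 0.31 (adjusted p = 1.19e-06). Gbp8 and Gbp10, guanylate-binding proteins, were among the 10 largest rises of all genes, at 2.83 ± 0.36 and 2.76 ± 0.41. Reads of near-identical family members, such as Gbp6 with Gbp10, Tgtp1 with Tgtp2 and the class I genes, may have been split or lost in counting, so the value of a single member of these families is uncertain.

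The same windows were searched for a core of the interferon-stimulated response element, GAAA followed by any 2 bases and another GAAA. It was found on either strand in 9 of 10 GTPase genes with a window and in 978 of 32851 windows in all (2.98%), and in none of the 8 class II genes. Neither motif was found in the windows of 11 neutrophil or 8 acute phase genes. The 100 bases before the start of 4 GTPase genes follow on the gene's strand with the match in capitals, which in Irgm1 spans 2 overlapping matches and in Gbp2 is read on the opposite strand. They lie at chr11:58199456-58199555 (plus strand) for Igtp, chr11:49064213-49064312 (minus strand) for Tgtp2, chr11:48871421-48871520 (minus strand) for Irgm1 and chr3:142620563-142620662 (plus strand) for Gbp2.
Igtp: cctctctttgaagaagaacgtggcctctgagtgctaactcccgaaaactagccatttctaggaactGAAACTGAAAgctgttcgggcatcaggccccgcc
Tgtp2: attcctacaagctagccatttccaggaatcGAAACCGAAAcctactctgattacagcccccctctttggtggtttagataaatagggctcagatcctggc
Irgm1: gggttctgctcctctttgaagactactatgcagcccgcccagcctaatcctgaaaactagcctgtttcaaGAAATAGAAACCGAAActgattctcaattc
Gbp2: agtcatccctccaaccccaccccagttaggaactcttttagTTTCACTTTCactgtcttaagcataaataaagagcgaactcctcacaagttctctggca

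Class I antigen presentation and the type I interferon response rose over their whole lists as well. All 20 class I and immunoproteasome genes were higher (median 1.49), also without the Sbp libraries. B2m, the light chain of class I, measured 264 to 1005 CPM with a median of 490 in high and 92.9 to 315 CPM with a median of 135 in low libraries, again without overlap in any group (1.58 ± 0.19). Nlrc5, the transactivator of class I, differed by 2.12 ± 0.25, the peptide transporter gene Tap1 by 1.96 ± 0.23 and the immunoproteasome subunit gene Psmb9 by 1.90 ± 0.22. All 20 type I interferon-stimulated genes were higher (median 1.44), and 19 of 20 without the Sbp libraries. Zbp1, a sensor of Z-form nucleic acid, differed by 2.22 ± 0.29, and Ifit3 and Ifi44, both induced by interferon, by 1.64 ± 0.20 and 1.67 ± 0.21. Many of these genes respond to both interferon types, so the lists do not separate the 2.

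Chemokines that recruit T cells and monocytes were among the largest rises. Of 15 tested chemokine genes 11 were higher (median 1.68). Cxcl9, which attracts activated T cells through CXCR3, held 4.61 to 79.9 CPM with a median of 13.2 in high and 0.0515 to 8.88 CPM with a median of 1.46 in low libraries. In naive brains it stood at 0.0538 ± 0.053 CPM (SD, n = 8). The difference was 3.16 ± 0.42 (adjusted p = 2.18e-06), with no overlap in any group. Ccl5, a chemokine of T cells and monocytes, differed by 2.64 ± 0.35, and Ccl22 and Cxcl16, ligands of CCR4 and CXCR6, by 1.76 ± 0.23 and 1.56 ± 0.17. The 4 that did not pass were Ccl4 (0.97), the neutrophil chemokine Cxcl1 (0.55), Cxcl12 (0.10) and Cx3cl1 (-0.16).

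Lymphocyte genes rose at low levels. Of 18 tested T cell genes 14 were higher (median 1.23), and 8 of 18 without the Sbp libraries, where the median was 1.24. Cd3g, a chain of the T cell receptor complex, measured 0.353 to 2.11 CPM with a median of 0.847 in high and 0 to 0.641 CPM with a median of 0.181 in low libraries (2.05 ± 0.31). High and low libraries overlapped in 1 of the 3 groups. Cd3e differed by 1.55 ± 0.24 and Icos, a costimulatory receptor, by 1.83 ± 0.29. Cd4 (0.19), Foxp3 (0.50), Cd28 (0.83) and Trbc2 (0.13) did not pass. Of 5 NK and cytotoxic genes 4 were higher, among them Klrk1 at 1.98 ± 0.37 and Gzmb at 1.67 ± 0.42, but none of the 5 passed without the Sbp libraries, where Gzmb stood at 1.45 ± 0.45 (adjusted p = 0.082).

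Antibody genes rose over the 3 groups together. Of 5 tested B cell genes 4 were higher, and 1 of 6 without the Sbp libraries. Igkc, the kappa light chain constant region, held 7.21 to 13.8 CPM in untreated high libraries and 0.285 to 2.73 CPM in untreated low libraries, and 2.34 to 8.18 against 0.206 to 1.18 CPM in the vehicle group. In the farnesol group it held 1.11 to 4.35 CPM in high and 0.260 to 2.48 CPM in low libraries, which overlapped. Its difference over all groups was 2.25 ± 0.36 (adjusted p = 2.89e-05), and 1.45 ± 0.42 (adjusted p = 0.0553) without the Sbp libraries. The heavy chain genes Ighg1 and Ighg2b were among the 10 largest rises, at 3.10 ± 0.61 and 2.95 ± 0.54. Neither exceeded 0.345 CPM in any low library, and both overlapped between high and low libraries of the farnesol group.

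Monocyte and macrophage genes rose over the whole list, 16 of 16 tested (median 1.52), and 16 of 16 without the Sbp libraries. Lyz2, the lysozyme of myeloid cells, measured 55.0 to 373 CPM with a median of 108 in high and 31.2 to 66.3 CPM with a median of 35.0 in low libraries, against 9.45 ± 0.95 CPM (SD, n = 8) in naive brains (1.71 ± 0.19). Ccr2, the receptor by which inflammatory monocytes leave marrow, differed by 1.21 ± 0.16, and Saa3, an inducible serum amyloid of macrophages, by 2.69 ± 0.37. Ly6i, of the Ly6 surface protein family, was the largest rise of all under the naming rule at 3.32 ± 0.42, with 0.0521 to 1.09 CPM in low, 1.10 to 25.1 CPM in high and no reads in naive libraries. Among 8 dendritic cell genes 4 were higher, led by the integrin gene Itgax (2.06 ± 0.26) and the homing receptor gene Ccr7 (1.89 ± 0.23). Without the Sbp libraries 2 of the 8 passed.

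Microglial genes rose on both their activated and their homeostatic lists. Of 20 activated microglia genes 19 were higher (median 0.97). Cst7, an endolysosomal protease inhibitor, held 2.19 to 19.7 CPM with a median of 3.98 in high and 0.103 to 1.78 CPM with a median of 0.808 in low libraries, without overlap in any group (2.87 ± 0.33). Clec7a, a pattern recognition receptor, differed by 2.18 ± 0.22 and the cathepsin gene Ctss by 1.41 ± 0.16. The pan-leukocyte gene Ptprc differed by 1.10 ± 0.14 and Aif1, the gene of IBA1, by 1.17 ± 0.17. Macrophages from blood share most of these genes.

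Naive libraries all belonged to a set with much ribosomal RNA (at least 5157 CPM of CT010467.1), to which only 7 EAE libraries belonged, all of them farnesol (4 low, 3 high). With that set as a term 1669 in place of 5780 genes (29.9%) differed between low-Cd74 and naive brains. Set and disease are largely confounded in comparisons with naive brains, and the comparison of high with low does not rest on it (2039 genes with the set as a term).

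Homeostatic microglia genes were lower in low-Cd74 brains than in naive brains and higher in high-Cd74 than in low-Cd74 brains. Against naive, low-Cd74 brains were lower in 6 and higher in none of the 12 genes (median -0.20), while high-Cd74 brains were higher in 7 and lower in 2 (median 0.42). With the ribosomal set as a term low-Cd74 brains were lower in 5 (median -0.42) and high-Cd74 brains higher in 4 and lower in 1 (median 0.06), and within the set of the naive libraries low-Cd74 brains were lower in 3. These comparisons share the naive libraries. The low libraries enter low against naive and high against low with opposite signs, so those 2 differences are not independent. Over all 19314 genes tested 29.9% differed between low-Cd74 and naive brains and 37.2% between high-Cd74 and naive brains. Between high and low, 10 of 12 were higher and 1 lower (median 0.58), and 7 of 12 higher and none lower without the Sbp libraries. P2ry12, a purinergic receptor of ramified microglia, measured 19.0 to 39.9 CPM with a median of 28.9 in high, 15.02 to 27.8 CPM with a median of 21.5 in low, and 28.9 ± 3.8 CPM (SD, n = 8) in naive libraries. It was lower in low-Cd74 than in naive brains (-0.53 ± 0.10, adjusted p = 6.39e-05), higher in high-Cd74 than in low-Cd74 brains (0.40 ± 0.10, adjusted p = 0.00501), and high-Cd74 brains differed from naive by -0.12 (adjusted p = 0.362). With the ribosomal set as a term high-Cd74 brains were also lower than naive (-0.48, adjusted p = 0.0188). Without the Sbp libraries the difference between high and low was 0.24 ± 0.12 (adjusted p = 0.386). Csf1r, the receptor that microglia need to survive, differed by 0.80 ± 0.10 with no overlap in any group.

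Fcrls went the other way. This Fc receptor-like gene is read as a marker of resident microglia, and it held 2.76 to 20.2 CPM with a median of 12.8 in high and 16.4 to 27.3 CPM with a median of 19.8 in low libraries, against 21.2 ± 1.8 CPM (SD, n = 8) in naive brains. The 5 high libraries at or below 8.22 CPM came from all 3 groups, while the lowest low library stood at 16.4 CPM. It fell by 0.84 ± 0.19 on the log2 scale (adjusted p = 0.00208), with -1.06 in untreated, -0.73 in vehicle and -0.74 in farnesol mice. Without the Sbp libraries it stood at -0.57 ± 0.21 (adjusted p = 0.165). Low-Cd74 brains did not pass against naive (-0.14, adjusted p = 0.622) and high-Cd74 brains did (-0.99, adjusted p = 0.000109), a call lost with the ribosomal set as a term (-0.60, adjusted p = 0.166).

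Complement and astrocyte reactivity followed. Of 14 complement genes 13 were higher (median 1.06), and 10 of 14 without the Sbp libraries. C3, the central component, held 31.4 to 179 CPM with a median of 50.2 in high and 6.33 to 27.2 CPM with a median of 11.8 in low libraries (2.23 ± 0.22), with C4b at 1.83 ± 0.20 and C1qa at 1.09 ± 0.14. Gfap, the intermediate filament of reactive astrocytes, measured 536 to 1383 CPM with a median of 704 in high and 237 to 527 CPM with a median of 313 in low libraries, against 238 ± 26 CPM (SD, n = 8) in naive brains. Its high and low libraries did not overlap in any group (1.17 ± 0.12, adjusted p = 2.17e-07). Of 17 reactive astrocyte genes 12 were higher (median 0.66), and 9 of 17 without the Sbp libraries. Vim differed by 0.66 ± 0.07 and the hyaluronan receptor gene Cd44 by 0.86 ± 0.09. Among homeostatic astrocyte genes 4 of 14 were higher, with the water channel gene Aqp4 at 0.47 ± 0.08, and the glutamate transporter gene Slc1a2 did not pass (-0.09, adjusted p = 0.21).

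**Figure D2:**
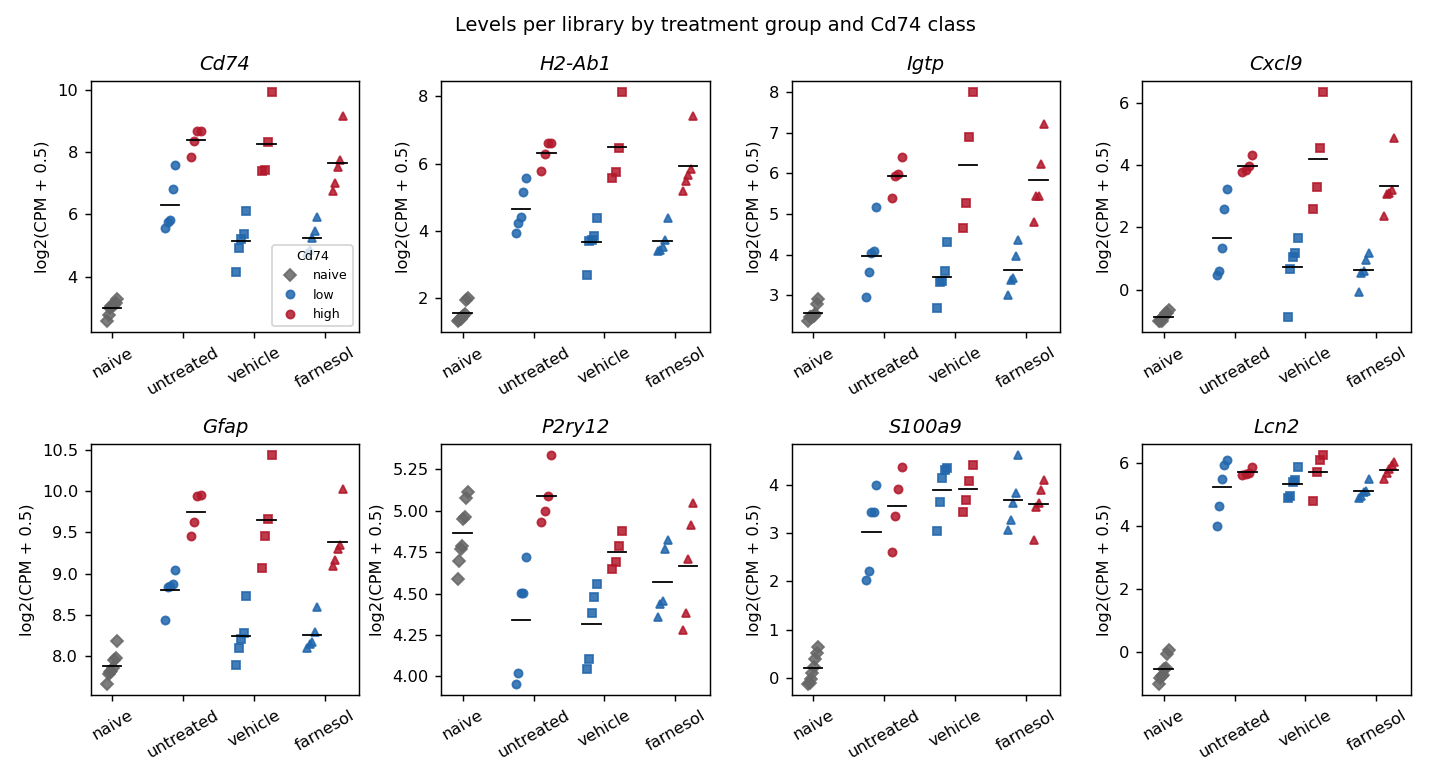
Level per library, as log2(CPM + 0.5), of 8 genes in the naive, untreated, vehicle and farnesol groups. Each symbol is 1 library, red for high and blue for low Cd74 and grey for naive, and black lines are means; Cd74, which set the colours, H2-Ab1, Igtp, Cxcl9 and Gfap separate red from blue in each EAE group, while red and blue overlap for S100a9 in each EAE group although both lie far above naive.

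Many genes higher in low-Cd74 EAE brains than in naive brains were not called between high and low. The genes of this paragraph were called against naive without the ribosomal set as a term. With it 1669 genes differed between low-Cd74 and naive brains, 853 of them higher. A difference by disease and one by set cannot be told apart in the genes counted below. Of 2969 genes higher in low-Cd74 than in naive brains (15.4% of 19314 tested), 554 (18.7%) rose further in high-Cd74 brains. This compares with 7.86% of all genes called higher, so raised genes rose with Cd74 more often than genes in general. Of the 2969 genes, 53 were lower in high-Cd74 brains and 2362 did not pass. In 2099 of those 2362, the 95% interval of the high minus low difference lay inside 1.5-fold either way. This held for 15196 of all 19129 genes tested, and for 90.7% of the 15972 among them with at least 1 CPM. An interval inside 1.5-fold is therefore not particular to these genes. Of the 440 genes raised more than 2-fold in low-Cd74 brains, 263 rose further. Of 2799 genes lower in low-Cd74 than in naive brains, 92 fell further in high-Cd74 brains, 167 were higher there and 2540 did not pass, 2489 of them with the interval inside 1.5-fold. None of the 19 genes lowered by more than 2-fold in low-Cd74 brains passed as lower still. The low libraries enter both comparisons with opposite signs. Genes picked as raised or lowered in them are therefore biased against moving further in high-Cd74 brains.

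Neutrophil genes were raised in low-Cd74 brains, and most were not called between high and low. All 11 tested were higher in low-Cd74 than in naive brains, with a median of 3.55, and 10 of 11 with the ribosomal set as a term. The median of high-Cd74 against naive brains was 3.67, and between high and low 1 of 11 was called (median 0.11), beside 7.86% of all genes called higher. For 5 of the 11 the 95% interval lay inside 1.5-fold, beside 15196 of all 19129 genes. The other members that did not pass had wider intervals, so a difference in them is not excluded. Among them, Il1r2 differed by 0.44 to 0.63 with 1 library left out at a time (edgeR, adjusted p = 0.0463 to 0.212). S100a9, a subunit of calprotectin, held 5.62 to 20.9 CPM with a median of 12.3 in high, 3.59 to 24.1 CPM with a median of 11.9 in low and 0.674 ± 0.24 CPM (SD, n = 8) in naive libraries. High and low libraries overlapped in every group. The difference was 0.10 ± 0.22 (adjusted p = 0.858, 95% interval -0.35 to 0.54), beside 4.10 ± 0.35 for low-Cd74 against naive. S100a8, the other subunit, differed by 0.09 ± 0.23 and the granule genes Ngp and Camp by -0.04 ± 0.21 and -0.09 ± 0.23. Csf3r, the receptor for granulocyte colony-stimulating factor, which monocytes and microglia also express, was the member that rose (1.06 ± 0.14).

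Acute phase and vascular genes were raised in low-Cd74 brains, and some rose further in high-Cd74 brains. Lcn2, an iron-sequestering acute phase protein, held 27.2 to 75.3 CPM with a median of 51.5 in high, 15.6 to 67.4 CPM with a median of 34.2 in low and 0.210 ± 0.20 CPM (SD, n = 8) in naive libraries. It was higher in low-Cd74 than in naive brains by 7.43 ± 0.37 and differed by 0.46 ± 0.16 between high and low (adjusted p = 0.0693, 95% interval 0.13 to 0.79). With 1 library left out at a time its adjusted p ran from 0.0230 to 0.136 and passed in 4 fits. Lrg1, a glycoprotein of inflamed vessels, was raised by 3.36 ± 0.21 in low-Cd74 brains and differed by 0.09 ± 0.14 between high and low, and Vwf, the von Willebrand factor of endothelium, was raised by 1.42 ± 0.12 and differed by 0.21 ± 0.11. Of 6 acute phase genes 4 rose with Cd74, including Serpina3n (1.42 ± 0.16) and Hp (0.92 ± 0.18). Of 12 endothelial activation genes 10 were raised in low-Cd74 brains and 5 rose further, with the leukocyte adhesion genes Icam1 and Vcam1 at 0.98 ± 0.13 and 0.50 ± 0.08.

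Other genes named by the same rule, raised in low-Cd74 brains and inside 1.5-fold between high and low, were Ifitm6 (raised by 3.43), Ifitm1 (1.91), Tmem252 (1.38) and Myo15 (1.28). Ifitm1 and Ifitm6 belong to an interferon-induced transmembrane family, and their high minus low differences were 0.23 ± 0.17 and -0.03 ± 0.22. The genes lowered against naive with the same property were Cideb (-0.90), Arsi (-0.87), Chp2 (-0.85), the growth factor gene Igf2 (-0.76) and Mfap4 (-0.71). None of these 5 passed against naive with the ribosomal set as a term, where Cideb had an adjusted p of 0.436 and Mfap4, the smallest, of 0.0794.

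**Figure D3:**
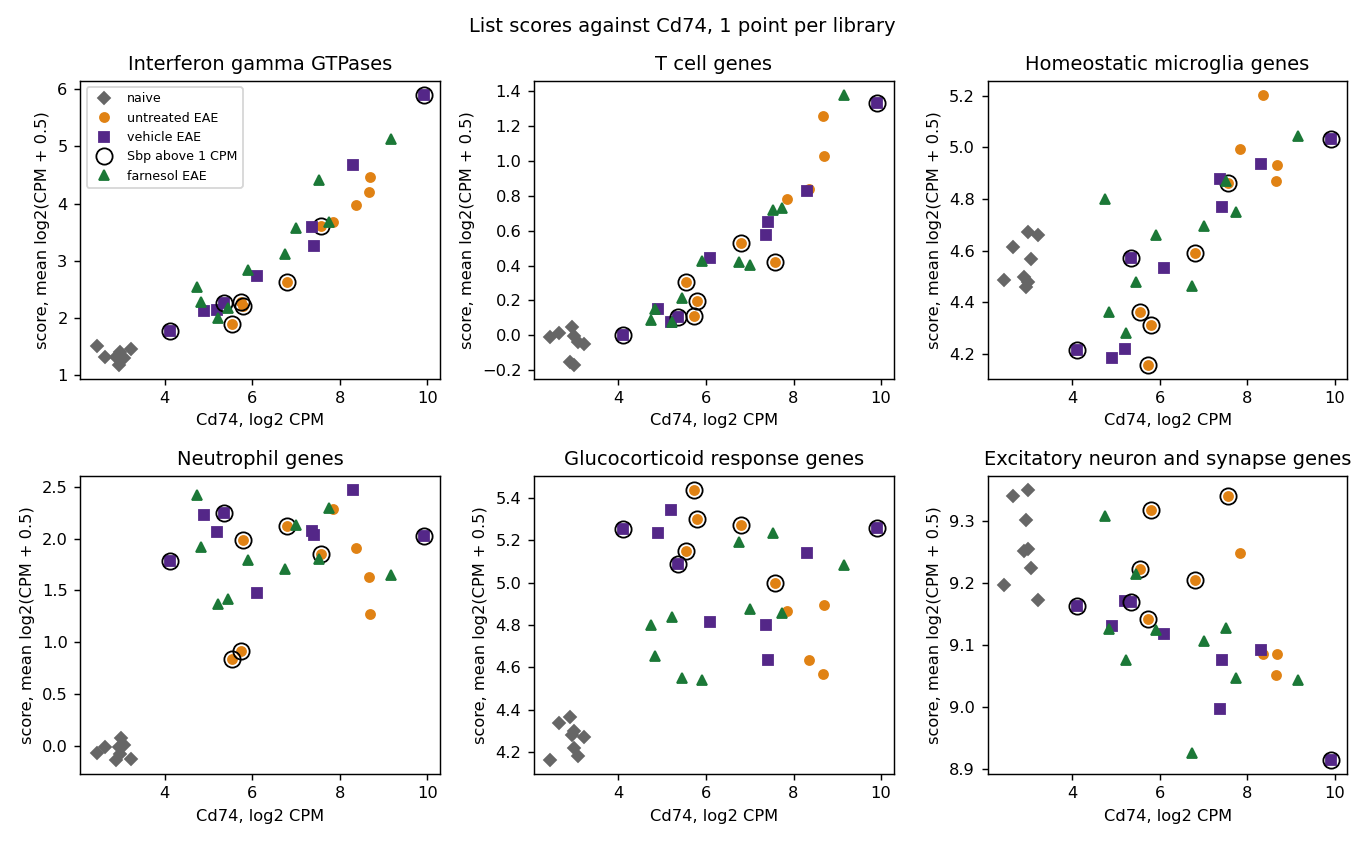
Score of 6 gene lists, the mean log2(CPM + 0.5) of their genes, against log2 CPM of Cd74 with 1 point per library, coloured by group and ringed where Sbp exceeded 1 CPM. GTPase and T cell scores climb with Cd74 across EAE libraries, whereas neutrophil scores of EAE libraries lie between 0.836 and 2.47, apart from naive libraries at no more than 0.0806, at every level of Cd74.

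Glucocorticoid response genes, which track stress hormones, also stood above naive. Of 18 genes 15 were higher in low-Cd74 than in naive brains, 9 with the ribosomal set as a term, 10 without the Sbp libraries, and 7 with 2 lower within the set of the naive libraries. Between high and low over the 3 groups together 1 was higher and 1 lower (median -0.07). This stands beside 7.86% of all genes called higher and 2.32% lower, so the count is near that share. Fitted alone, the untreated and farnesol groups gave medians of opposite sign, though the interaction of Cd74 class with group called 0 of 19130 genes. In the untreated group 7 of 18 were lower in high-Cd74 brains (median -0.31). Over all genes that fit called 547 of 17596, 507 of them higher. In the farnesol group 2 of 18 were higher (median 0.33), beside 218 of 17593 genes called higher. The untreated scores were 5.00 to 5.44 in the low libraries, all with Sbp, and 4.57 to 4.90 in the high libraries. The farnesol scores were 4.54 to 4.84 in the low and 4.86 to 5.23 in the high libraries, and the vehicle scores overlapped. Klf9, a transcription factor induced by glucocorticoids, differed by -0.19 ± 0.06 over all groups (adjusted p = 0.0455) and by -0.07 ± 0.07 without the Sbp libraries. The part of whatever sets Sbp in the untreated difference was not tested.

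Excitatory neuron and synapse genes fell by small amounts. Of 17 such genes 8 were lower in high-Cd74 brains (median -0.14), beside 2.32% of all genes called lower. The list score of 10 of the 13 high libraries lay below every low library of its group. Without the Sbp libraries 1 of 17 was lower, where the median was -0.12. Grin2b, an NMDA receptor subunit, fell by 0.31 ± 0.07 on the log2 scale (adjusted p = 0.0016), from 285 to 492 CPM with a median of 398 in low libraries to 267 to 387 CPM with a median of 322 in high libraries, and stood at -0.29 ± 0.08 (adjusted p = 0.0386) without the Sbp libraries. The vesicle protein gene Syp and the neuronal nuclear marker gene Rbfox3 fell by 0.15 ± 0.03 and 0.14 ± 0.04 on the log2 scale. None of 10 inhibitory neuron genes passed.

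Medians of the myelin and vessel wall lists lay near 0. Of 15 myelin genes 1 was higher (median 0.05), and Mbp, the myelin basic protein gene, held 2499 to 3972 CPM in high and 2032 to 3777 CPM in low libraries (0.05 ± 0.07, adjusted p = 0.77, 95% interval -0.10 to 0.20). For all but 1 of the myelin genes the interval lay inside 1.5-fold. None of 12 endothelial barrier (median 0.10) and 8 mural cell genes (median 0.04) passed. With 10.2% of all genes called, such counts in short lists, also the 1 of 15 myelin genes, are near that share. The interval lay inside 1.5-fold for 12 barrier and 7 mural genes, beside 15196 of all 19129 genes. The tight junction gene Cldn5 stood at 0.26 ± 0.09 (adjusted p = 0.057). With 1 library left out at a time its adjusted p by edgeR ran from 0.0285 to 0.123 and passed in 6 fits. Of 8 collagen and meningeal genes 4 were higher, and 1 without the Sbp libraries, with Col3a1 at 0.66 ± 0.15 and Col1a2 at 0.32 ± 0.06. None of 10 choroid plexus, 12 cerebellar, 7 olfactory bulb, 5 erythroid, 13 mitochondrial or 11 housekeeping genes passed, beside the same 10.2%. The interval lay inside 1.5-fold for 10, 4, 2, 0, 11 and 11 of them in that order. In the others a difference is not excluded.

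Cell division and secretory stress rose in part. Of 18 proliferation genes 5 were higher (median 0.38), beside 7.86% of all genes called higher. The mitotic genes Top2a and Mki67 stood at 1.01 ± 0.18 and 0.80 ± 0.14. Of 20 endoplasmic reticulum stress and heat shock genes 6 were higher, beside the same 7.86%, led by the stress transcription factor Atf3 (0.95 ± 0.22). Farnesol is the alcohol of farnesyl pyrophosphate, an intermediate of the mevalonate pathway. Of 25 mevalonate and sterol genes 1 was lower and none higher in high-Cd74 brains. This is near the 2.32% of all genes called lower. The synthase gene Fdps, which makes farnesyl pyrophosphate, stood at -0.42 ± 0.19 (adjusted p = 0.189).

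The 2 largest falls under the naming rule were pituitary hormone genes and rested on few libraries. Prl, the prolactin gene, held 568.4 CPM in vehicle replicate 8 and 383 CPM in untreated replicate 3, both low in Cd74, and at most 7.85 CPM in each of the other EAE libraries. Pomc, the precursor of corticotropin, held 356 CPM in that untreated library and 30.1 CPM in that vehicle library. The fits gave -5.05 ± 1.38 (adjusted p = 0.0139) for Prl and -2.72 ± 0.85 (adjusted p = 0.0366) for Pomc, and with single libraries left out they reached adjusted p of up to 0.354 and 0.107. Whether pituitary tissue was kept with these 2 brains was not tested. The naming rule, which asks for a mean of at least 1 CPM and 1 sign in all 3 groups and drops predicted loci, left out the other 8 genes that fell by more than 2-fold. Of these Gh, the growth hormone gene, stood at -4.34 (adjusted p = 0.0496), and the other 7, including Msmb (-3.55) and Olfr464 (-1.15), had means below 1 CPM in both high and low libraries. The further falls under the naming rule were Tekt4 (-0.60), a tektin of cilia, Sec16b (-0.54), Pde2a (-0.51), a cyclic nucleotide phosphodiesterase, Hkdc1 (-0.50), Kirrel2 (-0.48), Prx (-0.45) and Igdcc3 (-0.40). Of these 7, Hkdc1 alone passed without the Sbp libraries.

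Whether the difference between high and low brains depended on treatment was tested by the interaction of the Cd74 class with group. By edgeR 0 of 19130 genes passed (0%), and 889 had an unadjusted p below 0.05 (4.65%). For H2-Ab1 the difference was 1.56 in untreated, 3.13 in vehicle and 2.44 in farnesol mice (interaction adjusted p = 0.999). Gfap gave 0.93, 1.46 and 1.13, and Cxcl9 gave 2.04, 4.31 and 3.30. The largest values stood in the vehicle group, which also had the widest span of Cd74. Igkc gave 3.04, 3.21 and 0.61 (interaction unadjusted p = 0.00182, adjusted p = 0.636). With 4 or 5 libraries in each class of a group, differences of the size seen for Igkc did not pass over all genes.

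Fitted alone, the untreated group gave 547 genes, the vehicle group 720 and the farnesol group 227. All 3 fits called mostly rises, 507, 685 and 218 of them. In the farnesol group, which had no library with Sbp, 13 of 17 GTPase genes, 12 of 20 class I genes, 4 of 9 class II genes and 3 of 20 type I interferon genes passed. These stand beside 218 of 17593 genes called higher over all genes of the farnesol fit. Counts of calls in groups of different size and spread do not show that the groups differ.

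**Figure D4:**
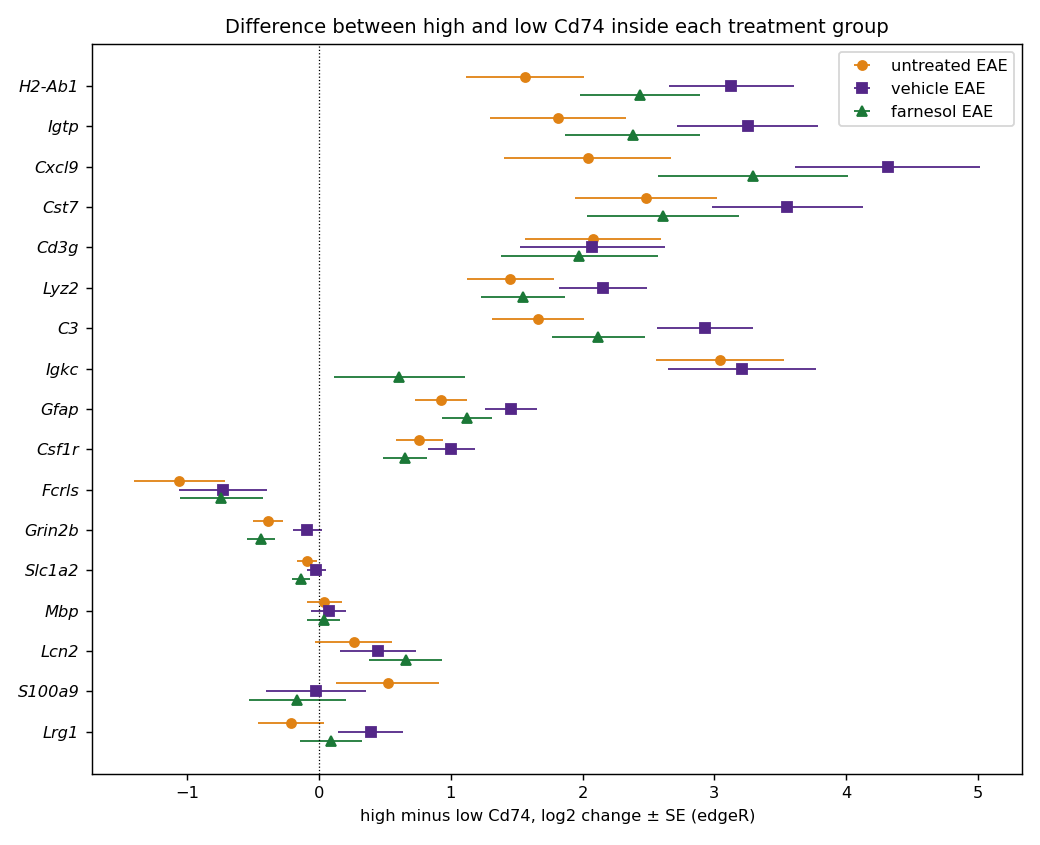
High minus low Cd74 difference (log2 ± SE, edgeR) of 17 genes inside the untreated, vehicle and farnesol EAE groups. Interferon, chemokine, myeloid and astrocyte genes lie right of 0 in all 3 groups, Fcrls lies left of 0 in all 3, Slc1a2 and Mbp lie near 0, and S100a9 and Lrg1 lie on both sides of it.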

How the data were processed

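Whole-brain RNA of 36 mice was sequenced (NEBNext Ultra libraries, per the labels' protocols), and the deposited table holds raw counts per Ensembl gene made by the authors. STAR 2.5 and build mm10 are named in the submitters' processing notes, and the labels' protocols also name Kallisto. The sources used here do not say which counter, annotation or strand setting was used, so a gene and an overlapping antisense gene may share reads. Symbols and coordinates came from GENCODE M21 (GRCm38) by identifier, for 54495 of 54532 identifiers with 99.99% of counts.

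Libraries were sorted by Cd74 counts divided by the column total. Genes were tested with edgeR 4.0.16 in R 4.3.3 (TMM scaling, filterByExpr with a minimum count of 10 and a total of 15, quasi-likelihood F test) with treatment group as a term, and SE is the log2 difference divided by the square root of F. Single values of libraries were compared by 100000 permutations within groups (two-sided, scipy 1.17.1). The labels number the samples but do not say that each came from separate cages or preparations, so p-values measure the spread between these samples. On simulated data for high against low (19130 genes) the fit recovered 42% of 50 genes changed 1.25-fold, 72% of 50 changed 1.5-fold, 90% of 50 changed 2-fold and 98% of 50 changed 4-fold, with 8 false calls among 18930 unchanged genes.

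Named genes were 15 set by name, the 10 largest rises and 10 largest falls past an adjusted p of 0.05 with a mean of at least 1 CPM and 1 sign in all 3 groups (predicted loci dropped), up to 4 genes of smallest p per list, and the 10 most raised and 5 most lowered genes against naive whose 95% interval lay inside 1.5-fold between high and low. Other genes, among them the list members that did not pass, Sbp and the sex-linked genes, were named after their values were seen. The members and the 37 lists were chosen with earlier results of these data known. Alternatives were RLE scaling, other filters, DESeq2 1.42.0, limma-voom (limma 3.58.1), library sets, other terms and left-out libraries. Several, including all that leave out every Sbp library, were chosen after seeing the data. Figures were drawn with matplotlib 3.10.9. A few named genes are not reported here.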

Additional observations from a re-analysis of the deposited data

Results flagged for a closer look

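A search of 88 groups of values for a library far from the rest of its group by Dixon's criterion found 5. Chance gives about 1 in 20 of the groups searched, so 5 of 88 is close to the number from chance alone. Untreated replicate 1, low in Cd74, had a total of 14.7 M (mega) counts against 20.1 to 24.2 M in the rest of its group. Untreated replicate 7, high in Cd74, had a mitochondrial share of 5.62% against 3.90 to 4.66%. The cerebellar score, a mean log2(CPM + 0.5), was 3.87 in untreated replicate 3 against 5.86 to 6.99, 2.62 in farnesol replicate 2 against 5.87 to 7.08, and 2.74 in naive replicate 4 against 6.40 to 6.71. Both EAE libraries were low in Cd74.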

How the results depend on the processing

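The 1947 genes called between high and low stayed within 1.5 times under RLE scaling (2007), no filter (1717), a stricter filter (1905), DESeq2 (2253), limma-voom (1983), the ribosomal set (2039) or Sbp (1558) as a term, median libraries left out (1759), cerebellum-poor libraries left out (1827) and log2 Cd74 as a covariate (2124). Left-out libraries moved the count. It was 1212 without untreated libraries with Sbp above 1 CPM and 805 without any library with Sbp above 1 CPM. It was 1173 without the untreated group, and 547, 720 and 227 in the untreated, vehicle and farnesol groups alone. These fits also had fewer samples. Rises made up 77.2% of calls, 72.2% under RLE scaling and 95.8% without any library with Sbp above 1 CPM. Leaving out 1 library at a time gave 1617 (without vehicle replicate 4) to 2168 genes, 5256 to 5844 for low against naive, 6570 to 7312 for high against naive and 0 to 9 for the interaction, which also gave 9 without a filter.

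With the ribosomal set as a term 1669 genes differed between low and naive and 3216 between high and naive, and 2629 between low and naive within the set that holds the naive libraries. Directions turned for Klf9 (0.024, adjusted p = 0.947, farnesol alone; -0.040 for low against naive within that set), Grin2b (0.0011 for low against naive within that set) and Prl (-3.37 for low against naive without vehicle replicate 8, the lowest value with 1 library left out, the highest being 0.20). The depth difference was 2.06 M counts (permutation, adjusted p = 0.0682) without median libraries. The cause of these changes was not tested.

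Replicate numbers did not pair the samples (27 pairs, median correlation 0.0048, 4 over 0.1, and 3 of 28 libraries closest to their own number). With the replicate block 1456 genes were called, 1338 of them shared. Ifng had too few reads to be tested.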
